A study of Homo sapiens with 4 samples.

Results

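The mRNAs of 41 proteins that hold, condense, attach and separate chromosomes were examined in IGF2BP3 RNA immunoprecipitation followed by sequencing (RIP-seq). The genes were taken from a list of cohesin, condensin, kinetochore, checkpoint, spindle, topoisomerase II and cytokinesis components, drawn up with earlier results of these data known, and the rule itself uses no measured value. They are 41 of 19688 protein-coding genes with a canonical coding transcript in GENCODE release 44. A peak was counted for a gene when its summit, the base of highest signal, lay in an exon of that gene. This gave 331 member peaks of 42720 exonic peaks in RIP replicate 1 and 339 of 41066 in RIP replicate 2. Peaks are intervals on the genome, so signal on separate exons of an mRNA is listed as separate peaks. The part of exon number in the peak counts was not tested.

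All 4 samples came from OE-19 cells, a line established from an esophagogastric junction adenocarcinoma, grown in RPMI1640 with fetal bovine serum. Fixation with UV light is given in the labels, whereas the RIP method of the study describes lysis and names no fixation. In 2 RIP samples RNA was pulled down with an antibody to IGF2BP3, an RNA-binding protein that recognizes methylated mRNAs, and 2 samples were inputs. A peak list of each RIP sample was used, and input values were not analysed here. The labels do not say whether the replicates were separate cultures, and a single cell line cannot show how other tumors behave. The lists hold no expression levels, so the identity of the cells was not checked against marker genes, and a gene's peaks may also follow the amount of its mRNA. A gene without a peak is therefore not shown to be unbound.

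Cohesin is a protein ring that holds sister chromatids together and forms chromatin loops, and condensin is a related ring that compacts chromosomes for mitosis. Kinetochores then join the centromeres to spindle microtubules, and the spindle checkpoint delays separation until every chromosome is attached. Many of these proteins are large, and their coding sequences are spread over many exons.

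The member windows with the strongest signal common to the replicates are shown first, because several of them return in the results below. Each reaches at most 50 nt to either side of the replicate 1 summit, within its coding exon, of the overlapping peak pair with the highest mean fold enrichment, in the 8 members with the highest such value. The sequences are those of the GENCODE transcripts on GRCh38 (hg38), 5′ to 3′ in the sense of the mRNA and in DNA letters. Capitals mark 3 short words that were searched: TGGAC, the word named by the study in its RNA form, then GGACT, a common context of methylated adenosine that can overlap the former, and lastly CACA.
NIPBL exon 8, chr5:36971945-36972025 (+ strand): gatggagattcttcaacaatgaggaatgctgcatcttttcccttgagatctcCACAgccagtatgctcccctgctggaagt
STAG1 exon 30, chr3:136343902-136344002 (- strand): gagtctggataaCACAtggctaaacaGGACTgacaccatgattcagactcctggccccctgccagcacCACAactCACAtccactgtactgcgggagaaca
STAG2 exon 13, chrX:124051315-124051394 (+ strand): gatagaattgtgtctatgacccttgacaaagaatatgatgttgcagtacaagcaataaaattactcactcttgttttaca
CLASP1 exon 19, chr2:121447424-121447507 (- strand): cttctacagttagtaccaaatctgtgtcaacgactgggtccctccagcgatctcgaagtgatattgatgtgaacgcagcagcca
KNL1 exon 13, chr15:40629273-40629352 (+ strand): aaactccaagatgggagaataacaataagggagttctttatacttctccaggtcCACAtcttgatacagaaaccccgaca
ASPM exon 22, chr1:197091977-197092056 (- strand): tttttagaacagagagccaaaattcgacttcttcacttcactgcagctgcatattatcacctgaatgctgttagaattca
WAPL exon 9, chr10:86467339-86467439 (- strand): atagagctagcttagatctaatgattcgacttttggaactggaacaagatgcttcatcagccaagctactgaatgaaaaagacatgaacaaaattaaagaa
CLASP2 exon 37, chr3:33510611-33510711 (- strand): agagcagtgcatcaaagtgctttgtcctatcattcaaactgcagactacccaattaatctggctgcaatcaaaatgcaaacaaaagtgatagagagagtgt
Of these 8 windows, 1 held GGACT, 3 held CACA and 0 held TGGAC. The STAG1 window held both GGACT and CACA, the latter at 3 places. These matches describe the letters in the windows only.

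Most members carried peaks, and the peaks were very unevenly spread. Exonic peaks were found in 35 members in replicate 1, in 36 in replicate 2 and in 34 (82.9%) in both, against 28.1% of all protein-coding genes. A stricter count used the q value of the authors' caller, which is corrected for multiple testing. Only 9.37% and 5.01% of member peaks in the replicates had q at most 0.05, against 10.1% and 7.70% of exonic peaks. The region, exon length and word results below use all listed peaks. A peak with q at most 0.05 was present in both replicates in 9 members (22.0%), against 4.98% of all genes, and in at least 1 replicate in 11 members (26.8%), against 10.3%. The 9 were NIPBL, STAG1, STAG2, PDS5A, KNL1, ASPM, CLASP1, CLASP2 and ANLN.

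Member mRNAs were long, and longer mRNAs had peaks more often in the whole lists. The median mRNA was 5949 nt in the members and 2900 nt in all genes. All 20 members of 6000 nt or more had a peak in both replicates, against 56.5% of the 3042 genes of that length. Between 4000 and 6000 nt, 9 of 12 members did, against 47.2%, and between 2000 and 4000 nt, 5 of 8 did, against 25.3%. The only member below 2000 nt, NUF2, did not, against 6.14% of genes of that length that did. For peaks with q at most 0.05 in both replicates, the longest class held 8 of 20 members (40%), against 17.1% of genes. From 4000 to 6000 nt it was 1 of 12 members (8.33%), against 7.73%, and from 2000 to 4000 nt 0 of 8, against 2.42%. The part of mRNA level in these counts was not tested.

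Among genes with a peak in both replicates, the members had similar top folds and a similar density of peaks per length of mRNA. The fold enrichment of a peak is the ratio of RIP signal to the caller's local background at the summit. The median over 34 members of the highest fold, averaged over replicates, was 3.89, against 3.60 over 5523 genes, and 20 of the 34 members lay above the median of those genes, which 50% of them do. Peaks per kb of mRNA had a median of 1.04 in the members and 1.15 in all these genes, and 16 of 34 members lay above the latter, again against 50%. Per kb of coding sequence (CDS), the same peaks, those in untranslated regions included, had a median of 1.67 in the members and 2.92 in all these genes. This scale also depends on the share of the CDS, which is 71.5% of the bases of member mRNAs and 44.9% of those of all mRNAs with peaks. The number of peaks per member was similar in the replicates, with Pearson's r = 0.882 and Spearman's rho = 0.845 across 34 genes, which share both libraries.

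**Figure D1:**
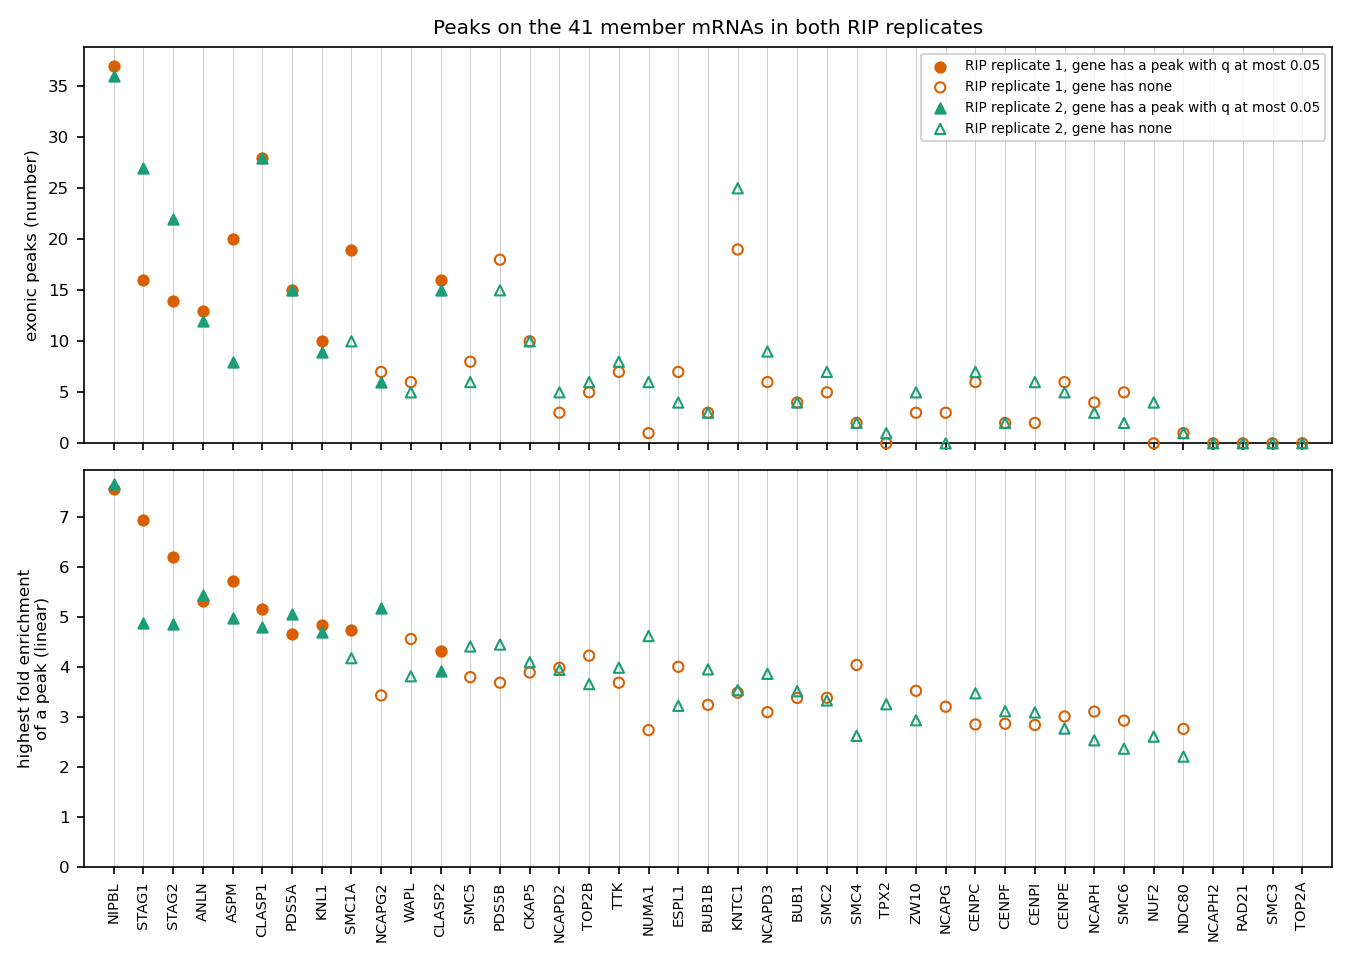
Number of exonic peaks (top) and highest fold enrichment of a peak on a linear scale (bottom) for each of the 41 members, ordered by mean highest fold. Circles are RIP replicate 1, triangles RIP replicate 2, and filled symbols mark a gene with a peak of q at most 0.05 in that replicate. NIPBL stands highest in both panels, with 37 and 36 peaks, and the 4 genes at the right had 0 peaks.

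Of the cohesin core, STAG1 and STAG2 carried many peaks and SMC3 and RAD21 carried none. STAG1 and STAG2 are alternative subunits of the ring that help to place it on chromatin. STAG1 had 16 peaks in replicate 1 and 27 in replicate 2, with highest folds of 6.94 and 4.88. The 2 summits of replicate 1 in its last exon, where replicate 2 had 4, also lay in exons of the gene PCCB. STAG2 had 14 and 22 peaks, with highest folds of 6.20 and 4.87. Both genes thus had more peaks in replicate 2 but a higher top fold in replicate 1. SMC1A, an ATPase arm of the ring, had 19 and 10 peaks with highest folds of 4.75 and 4.18, and passed q at most 0.05 in replicate 1 only. Its partner arm SMC3 and the closing subunit RAD21 had 0 peaks in both replicates, on mRNAs of 5522 and 3660 nt.

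All 5 regulators of cohesin had peaks in both replicates, against 56.5% of all genes with an mRNA of 6000 nt or more, as these 5 have. NIPBL, which loads cohesin onto DNA, had 37 and 36 peaks with highest folds of 7.57 and 7.67, and 8 and 6 of these peaks passed q at most 0.05. Its mean highest fold of 7.62 ± 0.0653 (SD, n = 2) lay at the 99.2 percentile of genes with a peak in both replicates. PDS5A and PDS5B are related proteins that hold cohesin on or help it off chromatin. PDS5A had 15 peaks in each replicate with highest folds of 4.65 and 5.06, each including 1 peak of q at most 0.05. PDS5B had 18 and 15 peaks with highest folds of 3.69 and 4.45, none of which passed. WAPL, the cohesin release factor, had 6 and 5 peaks with highest folds of 4.56 and 3.81. ESPL1, the separase that cuts cohesin at anaphase, had 7 and 4 peaks with highest folds of 4.0 and 3.22.

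At 6 places a member peak of q at most 0.05 in replicate 1 overlapped one of q at most 0.05 in replicate 2, and 3 of them were in NIPBL. In NIPBL exon 8 of 47, the window printed above, both summits fell on the same base, with folds of 6.21 and 7.10 and q of 0.000103 and 2.61e-06. In NIPBL exon 6 the folds were 4.68 and 7.67, and in exon 31 they were 5.08 and 5.17. Exons 6 and 8 lie near the start of the coding sequence, at 6.43% and 9.53% of its length, while exon 31 lies at 68.2%. STAG1 exon 30 had folds of 6.94 and 4.88 with summits 3 nt apart, STAG2 exon 13 had 5.22 and 4.69 with summits 7 nt apart, and CLASP2 exon 37 had 4.18 and 3.93 with summits 5 nt apart. These 6 were 19.4% of the 31 member peaks that passed in replicate 1, against 21.0% of 4256 such peaks over all protein-coding genes.

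SMC5 and SMC6, the arms of another ring of this kind that acts in DNA repair, differed in their top folds. SMC5 had 8 and 6 peaks with highest folds of 3.80 and 4.41, and SMC6 had 5 and 2 with highest folds of 2.93 and 2.36. Each had 1 site in common between the replicates.

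Of the 8 condensin mRNAs, 6 had peaks in both replicates, against 28.1% of all genes and 47.2% of those from 4000 to 6000 nt. That length class takes in most of the 8. NCAPD3 and NCAPH are longer, in a class with 56.5%, and NCAPH2 is shorter, in a class with 25.3%. Mean numbers in the 6 ran from 2 in SMC4 to 7.5 in NCAPD3. The median over all genes with a peak in both was 5. Over those of at least 4000 nt, a length that all 6 reach, it was 7.5. SMC2 and SMC4 are the arms of both condensins. SMC2 had 5 and 7 peaks with highest folds of 3.38 and 3.33, and SMC4 had 2 and 2 with highest folds of 4.04 and 2.62, none of which overlapped between replicates. Of the condensin I subunits, NCAPD2 had 3 and 5 peaks with highest folds of 3.99 and 3.94, and NCAPH had 4 and 3 with highest folds of 3.11 and 2.53. NCAPG had 3 peaks in replicate 1, 2 of them where its exons overlap the gene LCORL, and 0 in replicate 2. Of the condensin II subunits, NCAPD3 had 6 and 9 peaks with highest folds of 3.10 and 3.86. NCAPG2 had 7 and 6 with highest folds of 3.43 and 5.19, and its top peak in replicate 2, in exon 25, was the only condensin peak with q at most 0.05 and did not overlap a replicate 1 peak. NCAPH2 had 0 peaks in both.

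Of the kinetochore mRNAs, KNL1 stood highest. KNL1, a scaffold that recruits checkpoint proteins, had 10 and 9 peaks with highest folds of 4.85 and 4.70. CENPC and CENPI, at the inner kinetochore, had 6 and 7 peaks and 2 and 6 peaks, with highest folds of 2.85 and 3.47 and of 2.84 and 3.09. CENPE, a kinetochore motor, had 6 and 5 peaks with highest folds of 3.01 and 2.77. CENPF, among the longest member mRNAs at 10290 nt, had only 2 and 2 peaks with highest folds of 2.86 and 3.11, a density at the 1.47 percentile. NDC80 and NUF2 are partners in the complex that grips microtubules. NDC80 had 1 peak in each replicate, in different exons, and NUF2 had 0 and 4.

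All 5 checkpoint mRNAs had peaks in both replicates, against 28.1% of all genes. None of the 5 had a peak of q at most 0.05, against 10.3% of all genes with one in at least 1 replicate. For so low a share, 5 genes are too few to show a difference. KNTC1, which with ZW10 brings the motor dynein to kinetochores, had 19 and 25 peaks, but its highest folds were 3.49 and 3.54. KNTC1, whose mRNA has 64 exons, was thus rich in peaks, at 2.72 and 3.58 per kb, without a strong one. The kinase TTK had 7 and 8 peaks with highest folds of 3.69 and 3.99. BUB1, also a kinase, had 4 and 4 with 3.38 and 3.51, BUB1B had 3 and 3 with 3.24 and 3.95, and ZW10 had 3 and 5 with 3.52 and 2.93. No peak of BUB1B or ZW10 overlapped between replicates.

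Spindle mRNAs ranged from many peaks to almost none. CLASP1 and CLASP2, which stabilize microtubule ends, had 28 and 28 peaks and 16 and 15 peaks. The highest folds were 5.15 and 4.81 for CLASP1 and 4.32 and 3.93 for CLASP2. ASPM, a spindle pole protein, had 20 and 8 peaks with highest folds of 5.73 and 4.98, the widest gap in peak number between the replicates. CKAP5, a microtubule polymerase, had 10 and 10 with 3.89 and 4.10. NUMA1, which anchors the poles, had 1 and 6 with 2.74 and 4.62, and TPX2, a spindle assembly factor, had 0 and 1.

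TOP2A and TOP2B, enzymes that untangle DNA and are 72.5% identical as proteins, differed in their listed peaks. TOP2A had 0 peaks in both replicates and TOP2B had 5 and 6 with highest folds of 4.23 and 3.66. ANLN, a scaffold of the cleavage furrow in cytokinesis, had 13 and 12 peaks with highest folds of 5.33 and 5.44. In ANLN the peaks of q at most 0.05 lay in exon 13 in replicate 1 and in exon 17 in replicate 2.

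A few genes held most of the stronger peaks. NIPBL, STAG1, STAG2, CLASP1 and CLASP2, a set of 5 picked after their values were seen, held 33.5% and 37.8% of member peaks in the replicates but 74.2% and 70.6% of member peaks with q at most 0.05. Single member peaks were less often found again than exonic peaks in general: 49.5% and 48.7% overlapped a peak of the other replicate, against 60.8% and 64.6%. Of the member peaks with q at most 0.05, 22 of 31 (71.0%) and 14 of 17 (82.4%) did, against 84.4% and 85.1% over all protein-coding genes. Member peaks were also narrower, with median widths of 97 and 92 bp against 115 and 109 bp, and the part of width in the overlap was not tested. Over 164 overlapping pairs, log2 fold had r = 0.333 and rho = 0.30 between replicates, and the median distance between summits was 23 nt.

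Member summits lay in the coding sequence (CDS) more than summits in general. With the 200 nt before and after the stop codon set aside as a window of its own, the CDS held 86.2% and 88.7% of member summits, a mean of 87.5% ± 1.73 (SD, n = 2), against 72.0% ± 1.12 for all mRNAs. The 3′ UTR held 4.24% ± 2.21 against 15.9% ± 0.903, the stop codon window 6.64% ± 0.127 against 8.37% ± 0.132, and the 5′ UTR 1.65% ± 0.608 against 3.69% ± 0.0864. The mRNAs differ in the same way in their make-up, since the CDS is 71.5% of the bases of member mRNAs and 44.9% of those of all mRNAs with peaks, and the 3′ UTR is 25.5% and 50.7%. Within the CDS, member summits became more frequent toward the stop codon, from 13.0% ± 0.932 in the first of 5 equal parts to 28.3% ± 2.36 in the last. In all mRNAs the same parts held 16.0% ± 0.362 and 21.5% ± 0.333.

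**Figure D2:**
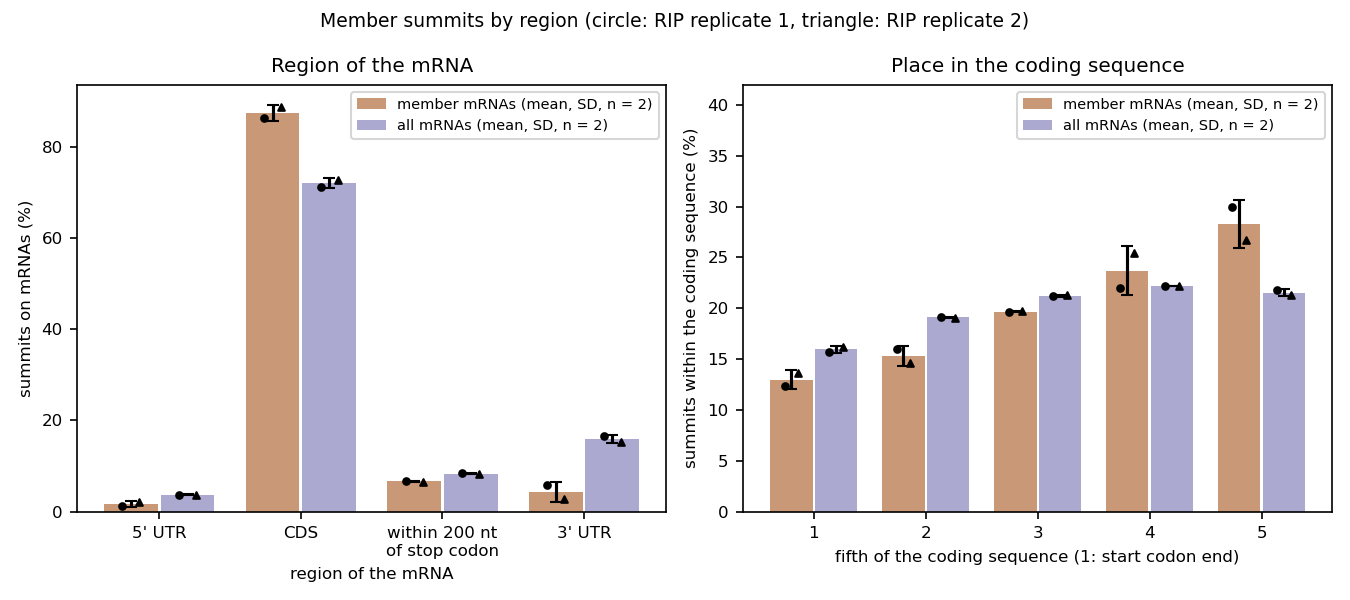
Percent of summits by region of the mRNA (left) and by 5 equal parts of the coding sequence (right) for member mRNAs and all mRNAs, as bars for the mean with the SD of 2 replicates, circles for RIP replicate 1 and triangles for RIP replicate 2. The CDS holds 87.5% of member summits and 72.0% of all, and member summits reach 28.3% in the last part.

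Short coding exons were denser in summits than long ones. In members, exons under 100 nt had 2.95 ± 0.596 summits per kb of CDS (SD, n = 2), exons from 100 to under 150 nt 2.53 ± 0.111, exons from 150 to under 300 nt 1.95 ± 0.062, exons from 300 to under 1000 nt 1.11 ± 0.277 and exons of 1000 nt or more 0.467 ± 0.132. The values of the 2 shortest classes differed by less than the spread between replicates. The fall with length was also present in all mRNAs with a peak in both replicates, from 3.30 ± 0.0908 to 0.948 ± 0.0669. Exons of 1000 nt or more made up 17.2% of the member CDS but held 5.02% and 3.23% of its summits. This class also takes in the coding parts of long last exons.

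**Figure D3:**
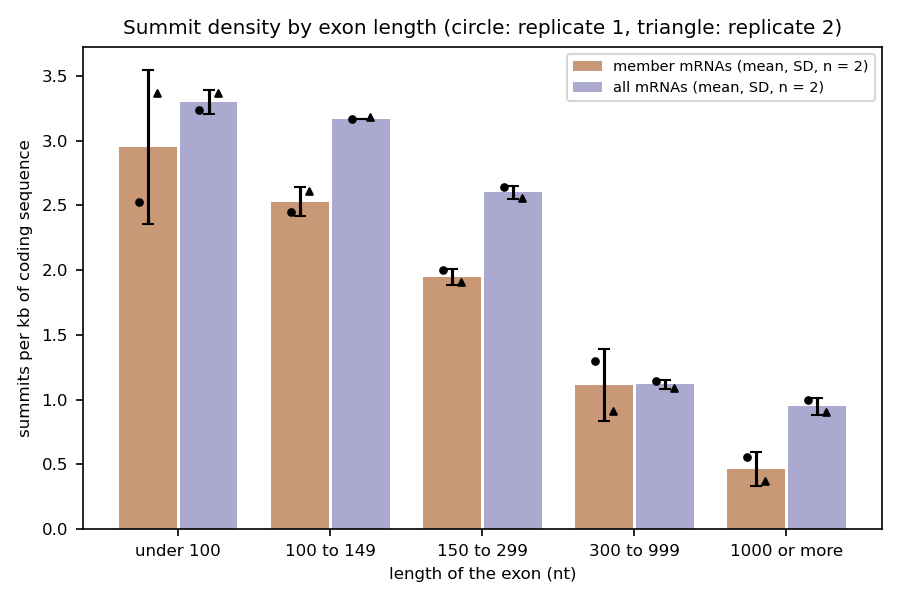
Summits per kb of coding sequence by length of the exon, for member mRNAs and all mRNAs with a peak in both replicates, as bars for the mean with the SD of 2 replicates, circles for RIP replicate 1 and triangles for RIP replicate 2. Density falls from 2.95 to 0.467 per kb in members and from 3.30 to 0.948 in all mRNAs.

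The longest coding exons of the members were mostly empty. Of 9 coding exons of 1000 nt or more before the last exon, 6 (66.7%) had no summit in either replicate, against 22.8% of 597 such exons over all mRNAs with peaks. KNL1 exon 10, of 5001 nt, makes up 54.0% of its mRNA and had 0 summits, while all 10 KNL1 summits of replicate 1 and 8 of 9 of replicate 2 lay 3′ of it. CENPF exons 12 and 13, of 3404 and 2844 nt, NUMA1 exon 15, of 3366 nt, ESPL1 exon 3 and WAPL exon 3 had 0 as well. The exceptions were ASPM exon 18, of 4755 nt, with 5 and 3 summits, NIPBL exon 10, of 1626 nt, with 2 and 4, and ASPM exon 3 with 1 and 0. Whether the caller's local background, which is computed along the genome, differs between long and short exons was not tested.

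**Figure D4:**
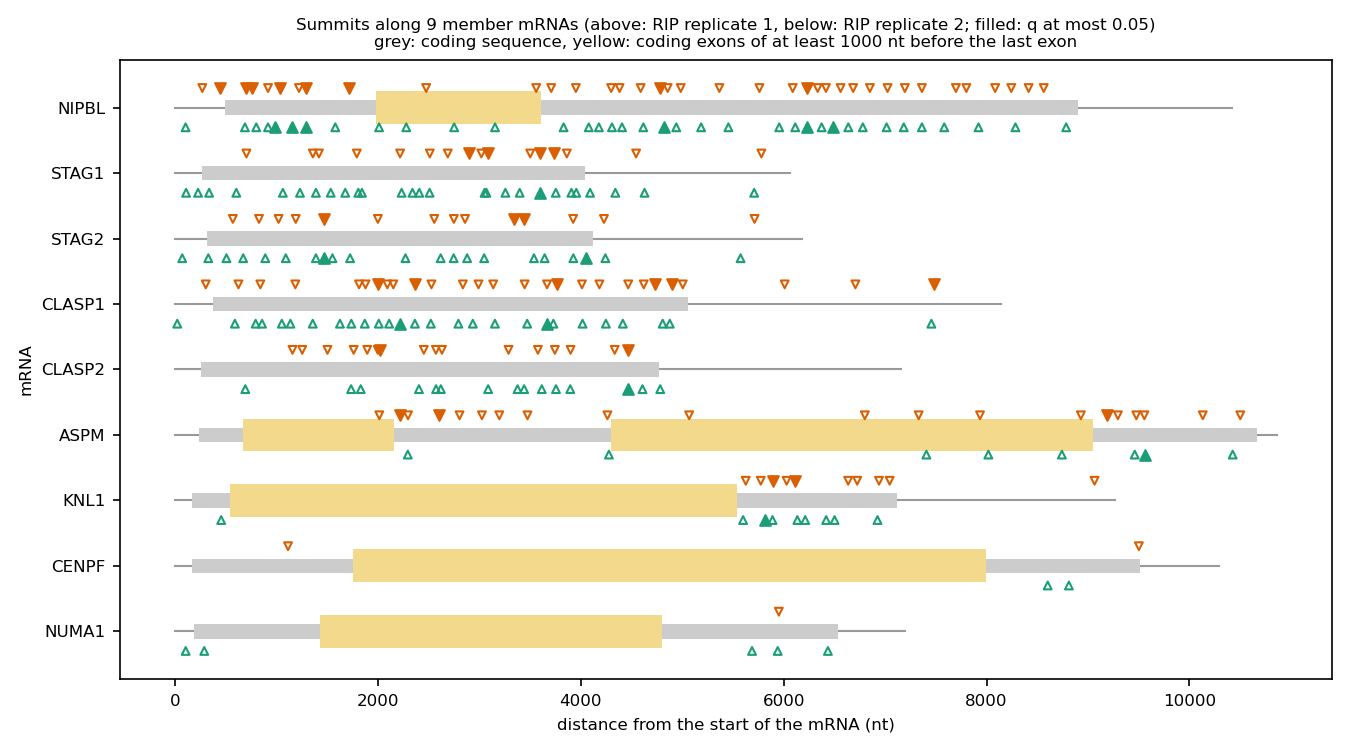
Summits along 9 member mRNAs by distance from the start of the mRNA in nt, with RIP replicate 1 above and RIP replicate 2 below each line, filled where q was at most 0.05. Grey marks the coding sequence and yellow the coding exons of at least 1000 nt before the last exon, which hold 0 summits in KNL1, CENPF and NUMA1.

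Several coding sites of the related genes CLASP1 and CLASP2 lay at matching places. Their proteins are 71.3% identical. Of the 10 CLASP2 coding sites common to the replicates, 9 lay within 17 codons of the aligned position of a CLASP1 site, while 47.1% of aligned CLASP2 codons lie that near to one. Of 21 CLASP1 sites, 9 lay that near to a CLASP2 site, against 22.6% of codons. In STAG1 and STAG2, which are 72.5% identical, 1 of 9 and 1 of 8 sites lay that near, against 22.3% and 23.9% of codons. In PDS5A and PDS5B, which are 71.0% identical, 2 of 6 and 2 of 11 did, against 25% and 15% of codons. Of the matched sites in these pairs, only that in CLASP2 exon 37 passed q at most 0.05 in both replicates. The shares of codons weigh all codons alike, whereas summits were denser in short exons and toward the stop codon. The 9 CLASP matches also lay in paired exons of like length, from 78 to 244 nt. This limits how far apart their summits can lie, and the part of exon structure was not tested. These small counts describe these libraries, and the difference between the pairs was not tested.

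The pair with the highest summed fold was in CLASP1 exon 39 and CLASP2 exon 37, both of 207 nt. The folds were 5.15 and 2.77 in CLASP1, which passed q at most 0.05 in replicate 1 only. They were 4.18 and 3.93 in CLASP2, which passed in both. The exons are 69.1% identical in bases, and their longest identical run is 14 nt. The same stretch of each, chosen after the values were seen, are shown on GRCh38 with capitals at the 24 bases that differ.
CLASP1 exon 39, chr2:121348565-121348665 (- strand): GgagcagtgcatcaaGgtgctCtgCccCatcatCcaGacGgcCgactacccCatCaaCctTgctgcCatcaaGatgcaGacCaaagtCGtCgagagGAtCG
CLASP2 exon 37, chr3:33510611-33510711 (- strand): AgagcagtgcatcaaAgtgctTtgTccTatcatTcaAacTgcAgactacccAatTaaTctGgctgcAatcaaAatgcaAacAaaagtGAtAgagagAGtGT

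The word TGGAC was rarer around member summits than around summits in general, and rarer in the member coding sequences as a whole. The words were searched on the sense strand only, in windows reaching 50 nt to either side of a summit. TGGAC was in 6.78% ± 0.51 of member windows (SD, n = 2), against 12.9% ± 0.0269 of windows in all mRNAs. The member coding sequences held it in 9.54% of tiles of that length, against 14.1% in all mRNAs with peaks. GGACT was in 7.39% ± 0.0714 of member windows against 8.89% ± 0.0646, with 7.12% and 9.62% of coding tiles. CACA was in 37.1% ± 1.42 against 38.4% ± 0.47, a difference below the spread of the member values, with 33.1% and 36.1% of coding tiles. Member windows had a GC content of 42.7%, against 49.1%, with 42.55% and 50.02% in coding tiles. The GC content of member windows was thus close to that of the member coding sequences as a whole.

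Other genes of the same machines had peaks about as often as all genes. Of 70 further cohesin cofactors and kinetochore, checkpoint, spindle and SMC5/6 genes, 23 (32.9%) had a peak in both replicates, against 28.1% of all genes. A peak of q at most 0.05 in both was present in 0, against 4.98%, and in at least 1 replicate in 6 (8.57%), against 10.3%. Their mRNAs are shorter, with a median of 2551.5 nt, and 0 of the 23 below 2000 nt had a peak in both, against 6.14% of all genes of that length. From 2000 to 4000 nt 13 of 31 (41.9%) did, against 25.3%, from 4000 to 6000 nt 7 of 11 (63.6%), against 47.2%, and at 6000 nt or more 3 of 5 (60%), against 56.5%. By group the counts were 5 of 9 cohesin cofactors, 5 of 25 kinetochore genes, 4 of 13 checkpoint genes, 8 of 17 spindle genes and 1 of 6 SMC5/6 subunits. ZWILCH, a partner of KNTC1 and ZW10 named after its values were seen, had 15 and 12 peaks with highest folds of 7.21 and 4.40. MAU2, the partner of NIPBL in cohesin loading and likewise named afterwards, had 18 and 10 with 5.96 and 4.13.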

How the data were processed

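RIP-seq of OE-19 cells was represented by a narrowPeak list for each of 2 IGF2BP3 RIP samples, grouped by sample title. Per the labels, the submitters' processing notes name fastp, HISAT2 and MACS2 with hg38, whereas the methods name Tophat2 and MACS2; versions and the control library are not given in the sources used here. The deposited fold enrichment is a ratio to the caller's local background. The −log10 of p and of q were deposited as the caller wrote them for each summit, and the smallest −log10 p of the lists was 2.0003 and 2.00226. The score column that the authors deposited repeats the p in whole numbers and was not used further. Read depth is unknown, so no counting interval was given, and the precision rests on 2 replicates.

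Summits were assigned to GENCODE 44 exons without strand. Scaffolds, with 13 and 12 peaks, were left out, and 0 peaks ran past a chromosome end. Regions, motifs and exons used canonical coding transcripts. Overlap meant any shared base. Proteins were aligned with BLOSUM62 (gap opening 11, extension 1), and sites were compared in pairs of at least 50% identity. No test was made, because there was 1 group with 2 lists and no control values. The members and lists were chosen with earlier results of these data known. Full values were given for members with q at most 0.05 in both replicates, the highest in fold, peaks or peaks per kb, paired genes and members without peaks. Alternatives were limits on q, p (1e-05) and fold (5), other assignments, overlaps, windows and scales, and leaving out each replicate. The assignment was tested on simulated data. Computations ran in Python 3.11.15 with Biopython 1.88, pandas 2.3.3, numpy 2.4.6, matplotlib 3.10.9 and scipy 1.17.1.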

Additional observations from a re-analysis of the deposited data

Results flagged for a closer look

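Some peaks had a summit outside the exons that the comparisons used. In replicate 1, 7 peaks had a summit in an intron of a member, in 5 genes, and 3 of them overlapped a replicate 2 peak. In replicate 2, 4 did, in 3 genes, and 3 of them overlapped a replicate 1 peak. Of the latter, the BUB1 peak of fold 2.70 and the CLASP1 peak of fold 2.43 overlapped replicate 1 peaks with exonic summits. Over the whole lists, 42720 of 44622 peaks in replicate 1 and 41066 of 42723 in replicate 2 had an exonic summit. The share of intronic peaks over all genes was not computed.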

How the results depend on the processing

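Of 66 alternative values, 31 moved by less than the spread between replicates or, for counts, stayed within 1.5 times, and 35 moved further. With only peaks of q at most 0.05, 9 members had a peak in both replicates, with 24 member peaks per replicate, 25% overlap, 92.2% of summits in the CDS, a median highest fold of 5.36, 0.211 peaks per kb and TGGAC in 0% of windows. With p at most 1e-05 these were 11, 41.5, 21.7%, 91.6%, 4.98, 0.287 and 5.14%. With a fold of at least 5 they were 2, 9.5, 21.1%, 95.8%, 6.5, 0.322 and 0%, and 2 members had q at most 0.05 in both. With overlapping peaks only there were 164.5 peaks per replicate, a median highest fold of 3.50, 0.496 peaks per kb and TGGAC in 5.19%. Any overlap with an exon gave 1.10 peaks per kb, and CDS length gave 1.67. An overlap of 50% of both peaks gave 33.0%. The median fold of a gene gave 2.97. Windows of 25 and 100 nt on either side held TGGAC in 3.31% and 15.8%, and a stop codon window of 100 nt gave 90.5% in the CDS. Leaving out a replicate gave a median highest fold from 3.69 to 3.90 and 1.05 to 1.06 peaks per kb. The causes were not tested beyond what each limit removes. No paired analysis was possible because the results come from no test and only 1 group has values. Input values, mRNA levels and read depth, which bear on every peak, were not analysed here.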
